A study of Mus musculus with 12 samples.

Results

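Clec4n, Clec4d, Clec4e, Clec7a, Clec5a and Clec12a are 6 mouse genes of chromosome 6 that encode C-type lectin receptors of myeloid cells, and the accessibility of their chromatin was followed here in bone marrow of young and old mice. The 6 genes were chosen with earlier results of these data known. Their peaks were then taken by position, with no use of measured values. A peak belonged to a gene if its centre lay inside the gene or within 10 kb of its ends on RefSeq GRCm38. Where it could belong to several, it went to the nearest of the 6 genes. This gave 37 of the 75281 consensus peaks of the series, with 7 peaks for Clec4n, 8 for Clec4d, 4 for Clec4e, 4 for Clec7a, 6 for Clec5a and 8 for Clec12a. At the level of genes the 6 stood among 15327 protein-coding genes that had at least 1 peak.

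The libraries are ATAC-seq, in which the Tn5 transposase cuts DNA not covered by nucleosomes, so that reads over a region count how open its chromatin is. All 12 came from bone marrow of NZO mice (NZO/HILtJ), an inbred strain known for obesity and diabetes. The 4 groups were 3 females and 3 males aged 3 months and 3 females and 3 males aged 18 months, each library from a mouse with its own number, given here as in the labels (BM-35 and so on). No treatment or engineered allele is named in the labels, and the old and young animals are different mice.

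C-type lectin receptors of this kind bind sugars and lipids of fungi, bacteria and damaged cells at the surface of neutrophils, monocytes, macrophages and dendritic cells. Most of them activate: through the adaptor FcRγ (gene Fcer1g) or DAP12 (gene Tyrobp), or through a motif in their own tail, they engage the kinase Syk, which signals through Card9, Bcl10 and Malt1 to NF-kB. Clec12a instead carries an inhibitory motif that recruits the phosphatases of the genes Ptpn6 and Ptpn11.

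Labels, depth and the levels of cell type markers stand beside every value below. The protocol text attached to the samples describes sorting of CD3e and CD8 positive T cells, whereas the sample labels name bone marrow only. Of the T cell markers 7 of 10 had a value (Cd3e, Cd8a and Cd8b1 had no peak assigned), as did 15 of 16 neutrophil and 15 of 16 erythroid markers. Total counts in peaks ran from 7668099 to 12756647 per library, and single counts at the 37 peaks from 12 to 384. The 18-month females were sequenced in run 14, the 18-month males in run 15 and the 3-month mice in runs 28 to 31, so age and sequencing run cannot be told apart and no comparison of ages within a run exists. Marrow is a mixture, and more cells of a type cannot be told apart from more accessible DNA per cell. Summed over the list, erythroid marker genes ran from 1085 to 1236 library-scaled counts (CPM) at 18 months and from 1747 to 2088 CPM at 3 months, and neutrophil marker genes from 1419 to 1700 CPM and from 1055 to 1557 CPM. The male BM-253, at 3 months, stood apart from the other young mice in this respect. Its neutrophil markers averaged 6.41 on the log2 CPM scale, against 5.92 to 6.14 in the other 3-month libraries and 6.33 to 6.60 at 18 months.

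The promoter windows of Clec4d, Clec4e and Clec12a are shown because their start-site peaks are compared below: those of Clec4d and Clec4e passed the test for age and that of Clec12a did not. Each window runs from 250 bases before to 50 bases after the annotated start (RefSeq, GRCm38.p6) and is written 5′ to 3′ on the strand of the gene. Capitals mark matches on either strand to 5 short motifs: GAGGAA for PU.1, TTGCNNAA for C/EBP, TGANTCA for AP-1, AGATAA for the GATA factors and TGTGGT for RUNX. Clec4d lies at chr6:123261857-123262156 on the plus strand, Clec4e at chr6:123289822-123290121 on the minus strand and Clec12a at chr6:129349994-129350293 on the plus strand.
Clec4d: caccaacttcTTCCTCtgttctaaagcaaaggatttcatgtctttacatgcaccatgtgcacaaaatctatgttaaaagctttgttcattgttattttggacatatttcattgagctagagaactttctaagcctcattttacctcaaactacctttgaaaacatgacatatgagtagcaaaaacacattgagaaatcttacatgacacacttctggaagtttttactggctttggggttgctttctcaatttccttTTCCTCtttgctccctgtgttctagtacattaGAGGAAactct
Clec4e: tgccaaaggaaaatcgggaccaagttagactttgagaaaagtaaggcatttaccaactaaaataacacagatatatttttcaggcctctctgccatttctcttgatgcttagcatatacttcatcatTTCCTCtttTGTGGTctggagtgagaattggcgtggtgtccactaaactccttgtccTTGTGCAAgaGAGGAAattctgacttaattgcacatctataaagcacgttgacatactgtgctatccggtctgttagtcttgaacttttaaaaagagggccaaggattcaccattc
Clec12a: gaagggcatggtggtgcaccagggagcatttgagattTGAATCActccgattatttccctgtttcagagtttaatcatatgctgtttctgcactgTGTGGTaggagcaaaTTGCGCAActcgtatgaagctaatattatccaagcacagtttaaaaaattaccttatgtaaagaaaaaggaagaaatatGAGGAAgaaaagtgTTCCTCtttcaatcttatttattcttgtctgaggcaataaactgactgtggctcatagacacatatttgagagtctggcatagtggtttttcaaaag
All 300 bases of each of these windows lay inside the start-site peak of their gene.

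The PU.1 letters were present in the windows of all 5 genes that the promoter table holds (Clec4d, Clec4e, Clec7a, Clec5a and Clec12a), against 28.3% of 32851 promoter windows of the genome. PU.1 is a transcription factor of myeloid and B cells. The C/EBP letters stood in Clec4e and Clec12a (10.8% of all windows), the RUNX letters in Clec4e, Clec5a and Clec12a (16.8%) and the AP-1 letters in Clec12a (7.81%). No matches of different motifs overlapped, and in Clec12a the C/EBP match reads the same on both strands. No window of the 5 genes held the GATA letters (11.2% of all windows). A match describes the sequence and is not a measured binding site.

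With age, chromatin over 5 of the 6 genes was more accessible in the old marrow when all peaks of a gene were summed: Clec4n, Clec4d, Clec7a, Clec5a and Clec12a rose by 0.26 to 0.40 on the log2 scale, and Clec4e did not pass the test. Among all 15311 genes tested, 18.3% were called higher and 18.3% lower (edgeR quasi-likelihood test, Benjamini-Hochberg adjusted p under 0.05). The median log2 fold change was 0.32 over the 6 genes and 0.01 over all genes. Gene sums are given in CPM of the reads that fell in peaks of genes, scaled as in the test, so that they are not the plain sum of the CPM printed for peaks.

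**Figure D1:**
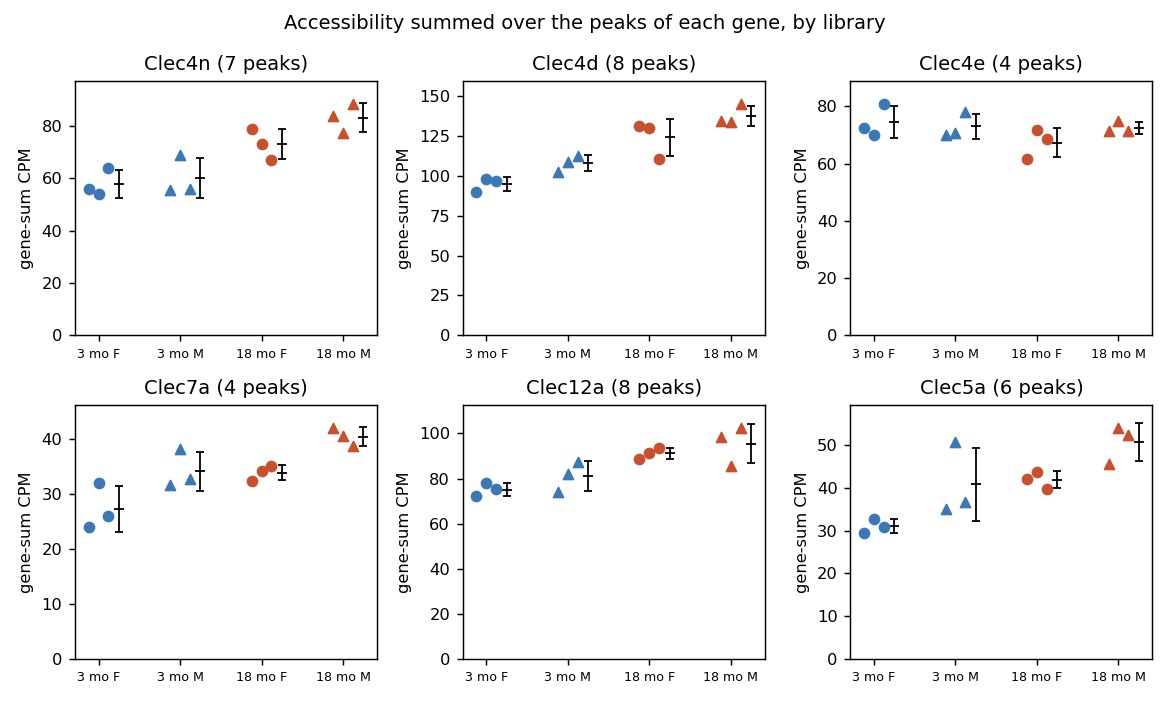
Accessibility of each gene in CPM (counts of all its peaks, scaled to the library), for females (circles) and males (triangles) at 3 months (blue) and 18 months (orange), with the mean and SD of the 3 libraries of a group in black. In 5 panels most old libraries sit above the young ones, in Clec4e they overlap, and 1 young male (BM-253) stands high in Clec4n, Clec7a and Clec5a.

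Clec4n (gene 56620, chr6:123229843-123247024) encodes Dectin-2, a receptor for fungal mannans that signals through FcRγ. Its gene sum was 67.1, 73.3 and 78.9 CPM in the 18-month females, 77.3, 83.9 and 88.4 CPM in the 18-month males, 54.1, 55.7 and 64.1 CPM in the 3-month females and 55.4, 56.0 and 68.8 CPM in the 3-month males. The ages overlapped only through the young male BM-253 (68.8 CPM), which stood above the old female BM-42. The log2 fold change was 0.40 (SE 0.070, edgeR adjusted p = 0.000101), the largest of the 6 with all libraries included. Without BM-253 that of Clec5a was larger (0.46 against 0.44).

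Clec4d (gene 17474, chr6:123262107-123275268) encodes MCL, which pairs with Mincle and binds mycobacterial glycolipid. Its sums were 111, 130 and 131 CPM in old females, 134, 135 and 145 CPM in old males, 90.1, 97.1 and 98.3 CPM in young females and 103, 109 and 112 CPM in young males. The old female BM-42, at 111 CPM, was the lowest of the old mice and lay just under the young male BM-252 at 112 CPM; no other pair overlapped. The log2 fold change was 0.37 (SE 0.054, adjusted p = 1.2e-05).

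Clec4e (gene 56619, chr6:123281789-123289871) encodes Mincle, a receptor for mycobacterial cord factor and for a protein set free by dying cells. Its sums ran from 61.6 to 74.8 CPM at 18 months (median 71.3) and from 70.1 to 80.8 CPM at 3 months (median 71.7). The ages overlapped widely, with a log2 fold change of -0.08 (SE 0.062, 95% interval -0.21 to 0.05, adjusted p = 0.332).

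Clec7a (gene 56644, chr6:129461591-129472785) encodes Dectin-1, the receptor for fungal beta-glucan. Its sums ran from 32.3 to 42 CPM at 18 months (median 36.8) and from 24.0 to 38.2 CPM at 3 months (median 31.8). The highest young library was again the male BM-253, above 3 of the old ones. The log2 fold change was 0.28 (SE 0.081, adjusted p = 0.00918), and the call was lost in 2 alternatives: with the scaling factors of the peak table (0.20, adjusted p = 0.0724), and when peaks went to the nearest of all genes (0.24, adjusted p = 0.0517).

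Clec5a (gene 23845, chr6:40574898-40585805) encodes MDL-1, which signals through DAP12 and is known for binding flaviviruses. Its sums ran from 39.8 to 54.1 CPM at 18 months (median 44.7) and from 29.4 to 50.7 CPM at 3 months (median 33.9). The value of 50.7 CPM belonged to the male BM-253, and the other 5 young libraries reached at most 36.7 CPM, below every old one. The log2 fold change was 0.37 (SE 0.086, adjusted p = 0.00153) and 0.46 without that mouse.

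Clec12a (gene 232413, chr6:129349783-129365303), the inhibitory receptor that senses uric acid crystals of dead cells, had sums of 85.6 to 102 CPM at 18 months (median 92.4) and 72.2 to 87.4 CPM at 3 months (median 76.5). A single pair of libraries overlapped, the young male BM-252 and the old male BM-39. The log2 fold change was 0.26 (SE 0.059, adjusted p = 0.00131).

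In none of the 6 gene sums were the ages fully apart, against 14.3% of all tested genes. Neutrophil and monocyte markers moved in the same direction as the 5 genes, as given below, and their part in the rise was not tested. The scaling matters for how many genes count as changed. With the scaling factors of the peak table, 10.6% of all genes were higher and 25.0% lower, the median of all genes moved to -0.06, and 4 of the 6 genes passed the threshold.

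Per kb of peak, the 6 genes were open to much the same degree. Clec5a had 16.3 ± 3.35 CPM per kb (SD over the 12 libraries), Clec4d 15.9 ± 2.47, Clec4n 15.3 ± 2.65, Clec4e 15 ± 0.997, Clec12a 13.4 ± 1.53 and Clec7a 13.3 ± 2.13 CPM per kb. Each neighbouring pair in this order differed by less than either SD of the pair except Clec4e and Clec12a. The order differs by age: at 3 months Clec4e was first (15.5 CPM per kb, against 14.2 for Clec5a), and at 18 months it was level with Clec12a and Clec7a (14.6, 14.6 and 14.5 CPM per kb).

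At single peaks, 9 of the 37 passed the test for age, 8 higher and 1 lower at 18 months, while 21.0% of all 75164 tested peaks did (9.43% higher and 11.6% lower). The share called was thus near the background. Of the 37, 31 (83.8%) had a log2 fold change above 0 against 53.0% of all tested peaks, with a median of 0.25 against 0.02. Related gene lists leaned the same way: 14 of 15 neutrophil marker genes and 24 of 26 other C-type lectin genes had gene sums above 0. So did 6 of 7 T cell and 6 of 6 NK cell markers, so the lean was not particular to myeloid or lectin genes. Of B cell markers 6 of 11 were above 0, of dendritic cell markers 5 of 9 and of erythroid markers 0 of 15. All 37 passed the filter on low counts. The ages did not overlap at 1 of the 37 peaks, against 7.24% of all tested peaks.

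**Figure D2:**
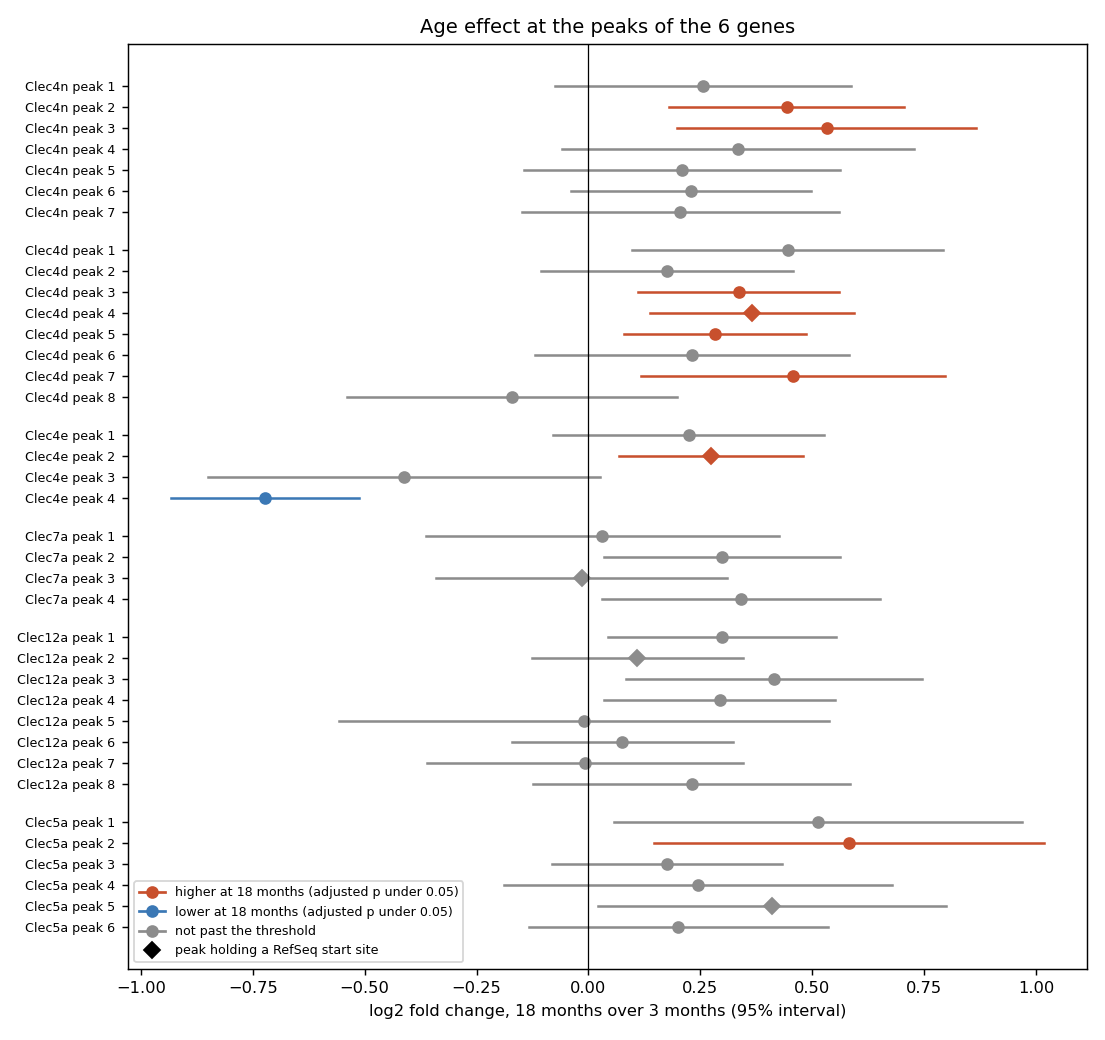
Log2 fold change of each of the 37 peaks, 18 months over 3 months, with its 95% interval, grouped by gene and numbered by position on the chromosome; diamonds are peaks that hold an annotated start site. The 8 called higher (orange) lie between 0.27 and 0.58, and the one called lower (blue), Clec4e peak 4, lies at -0.72 with an interval apart from those of the other called peaks.

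The count of called peaks varied with the mouse left out. It was 4 without the old female BM-36, 3 without the old male BM-40 and 2 without the young female BM-245. Without the young female BM-243 it was 4, and without the young male BM-251 or the young female BM-244 it was 5. Leaving out the old female BM-35 or BM-42 gave 6, the old male BM-38 gave 7 and the young male BM-252 gave 8. The count stayed at 9 without the old male BM-39 and rose to 12 without the young male BM-253. These fits had fewer libraries and their calls over all peaks are not given, so dependence on particular mice was not tested. The count was 14 when libraries were scaled to total counts. That last scaling moved the median of all peaks from 0.02 to 0.10 and the split of calls over all peaks from 7089 higher and 8687 lower to 11196 and 6629.

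The neighbours Clec4n, Clec4d and Clec4e, which share a stretch of chromosome 6, held 8 of the 9 called peaks. These were 2 of 7, 4 of 8 and 2 of 4 peaks, against 21.0% of all tested peaks. Whether calls gather in this stretch was not tested. Peaks are numbered within a gene by rising coordinate.

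**Figure D3:**
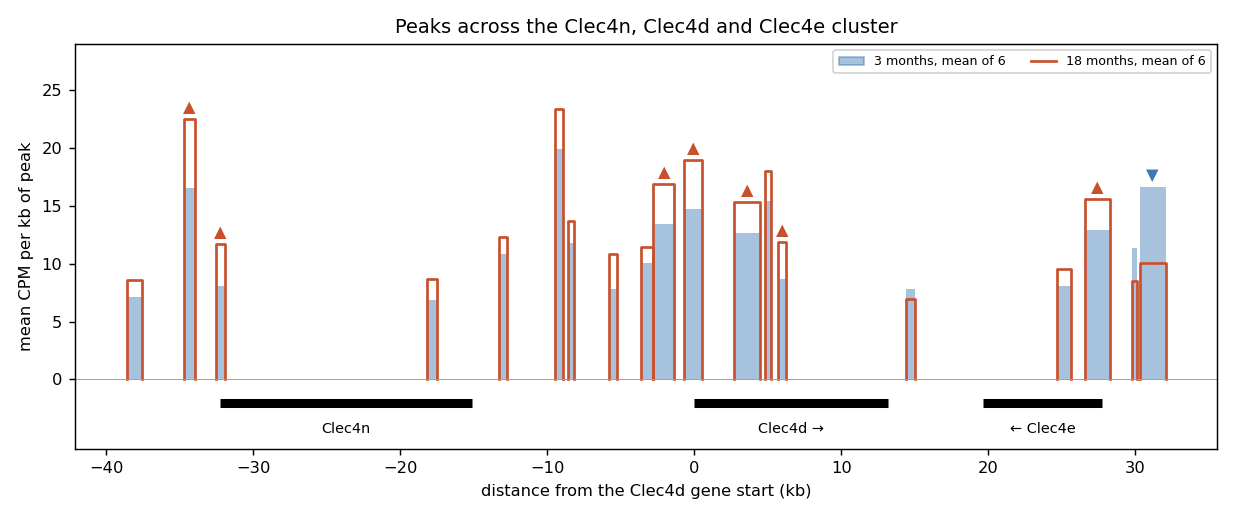
Peaks over the Clec4n, Clec4d and Clec4e stretch by distance from the Clec4d gene start in kb, with height in mean CPM per kb of peak at 3 months (blue fill) and 18 months (orange outline); bars below are the genes, and triangles mark peaks called higher or lower. The orange outline stands over the blue fill from Clec4n to the Clec4e start, except at Clec4d peak 8, and under it at the peaks upstream of Clec4e.

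In Clec4n, peaks 2 and 3 were higher with age and all 7 peaks had a log2 fold change above 0 (0.21 to 0.53). Peak 2 (chr6:123227368-123228173), in the flank at lower coordinates, has the most CPM of the gene, though peak 6 is higher per kb. It held 14.9, 19.4 and 21.6 CPM in old females and 14.7, 16.2 and 22.0 CPM in old males. Young females had 10.6, 12.1 and 15.7 CPM and young males 11.4, 11.9 and 18.3 CPM, so that a female (BM-243) and the male BM-253 overlapped with the old mice. The log2 fold change was 0.44 (SE 0.131, adjusted p = 0.0114), and the call was lost without the old male BM-40 or the young female BM-245. Peak 3 (chr6:123229596-123230168), at the lower-coordinate end of the gene, held 5.50 to 7.51 CPM in the old (median 7.02) and 3.01 to 6.02 CPM in the young mice (median 4.75), a change of 0.53 (SE 0.166, adjusted p = 0.0170), a call lost without the young female BM-245. The gene's strand and promoter are not in the tables used here, so no start site was assigned.

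In Clec4d, 4 of 8 peaks were higher, around and inside the gene. The start-site peak 4 (chr6:123261406-123262624) held 20.1, 24.1 and 27.7 CPM in old females and 19.8, 22.3 and 24.8 CPM in old males. Young females had 14.3, 17.4 and 18.1 CPM and young males 16.6, 19.6 and 22.0 CPM, so the female values were apart and the male values overlapped. Its log2 fold change was 0.37 (SE 0.113, adjusted p = 0.0161), and the call was lost without the old female BM-36 (adjusted p = 0.0656) or the young female BM-243 (adjusted p = 0.0639).

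Peak 3 of Clec4d (chr6:123259335-123260735), centred 2072 bases upstream, ran from 16.9 to 26.2 CPM in old and from 15.8 to 23.4 CPM in young mice. Its low old value belonged to the female BM-42, the other 5 old mice held 23.3 CPM or more, and the change was 0.34 (SE 0.112, adjusted p = 0.0258). The call was lost without each of the old mice BM-35, BM-36 and BM-40 and the young mice BM-245, BM-251 and BM-244 (adjusted p up to 0.0842). Peak 5 (chr6:123264822-123266562), inside the gene and with its most CPM, though not per kb, ran from 23.1 to 29.2 CPM and from 18.8 to 25.2 CPM, a change of 0.28 (SE 0.101, adjusted p = 0.0379). The call was lost in 9 of 17 alternatives: with no sex covariate (edgeR adjusted p = 0.0534) and without each of the old mice BM-35, BM-36, BM-38 and BM-40 and the young mice BM-245, BM-243, BM-251 and BM-244 (adjusted p up to 0.103). The small intragenic peak 7 (chr6:123267814-123268358) ran from 4.91 to 7.34 CPM and from 3.34 to 5.91 CPM, a change of 0.46 (SE 0.169, adjusted p = 0.0464). That call was lost in 12 of 17 alternatives: DESeq2 (adjusted p = 0.0528), no filter (0.0518), smoothed offsets (0.0821) and without each of the old mice BM-35, BM-36, BM-42, BM-38 and BM-40 and the young mice BM-245, BM-243, BM-253 and BM-244. Peak 8, downstream, was the only one of the gene below 0, at -0.17, and did not pass.

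Clec4e was split within itself. The start-site peak 2 (chr6:123288674-123290431) held 23.2, 29.7 and 30.6 CPM in old females, 25.1, 27.7 and 28.3 CPM in old males, 20.8, 22.5 and 23.1 CPM in young females and 22.0, 22.7 and 25.2 CPM in young males. Old values were mostly above young ones, with an overlap through the old female BM-35, the old male BM-39 and the young male BM-253. The change of 0.27 (SE 0.102, adjusted p = 0.0487) was close to the threshold and was lost in 10 of 17 alternatives: with no sex covariate and without each of the old mice BM-36, BM-42, BM-38 and BM-40 and the young mice BM-245, BM-243, BM-251, BM-244 and BM-252.

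Peak 4 of Clec4e (chr6:123292424-123294178), 1755 bases wide and centred 3430 bases upstream of the start, went the other way. It held 16.6, 16.8 and 21.0 CPM in old females and 15.3, 17 and 19.3 CPM in old males. Young females had 27.0, 30.8 and 32.1 CPM and young males 26.9, 28.6 and 29.9 CPM. Every old mouse was below every young mouse, in both sexes. The peak fell by 0.72 on the log2 scale (SE 0.105, adjusted p = 7.26e-07), the largest change and the smallest p of the 37 peaks.

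The same call was made within females (log2 fold change -0.72, adjusted p = 0.000314) and within males (-0.72, adjusted p = 0.00045), and it held in all 17 alternatives, with values from -0.78 to -0.63. The small neighbour, peak 3 (chr6:123291918-123292242), ran from 2.26 to 3.52 CPM in old and from 2.61 to 4.65 CPM in young mice and did not pass (-0.41, adjusted p = 0.178). The male values of both larger peaks are drawn beside the female ones in the plot of Clec4e peaks.

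**Figure D4:**
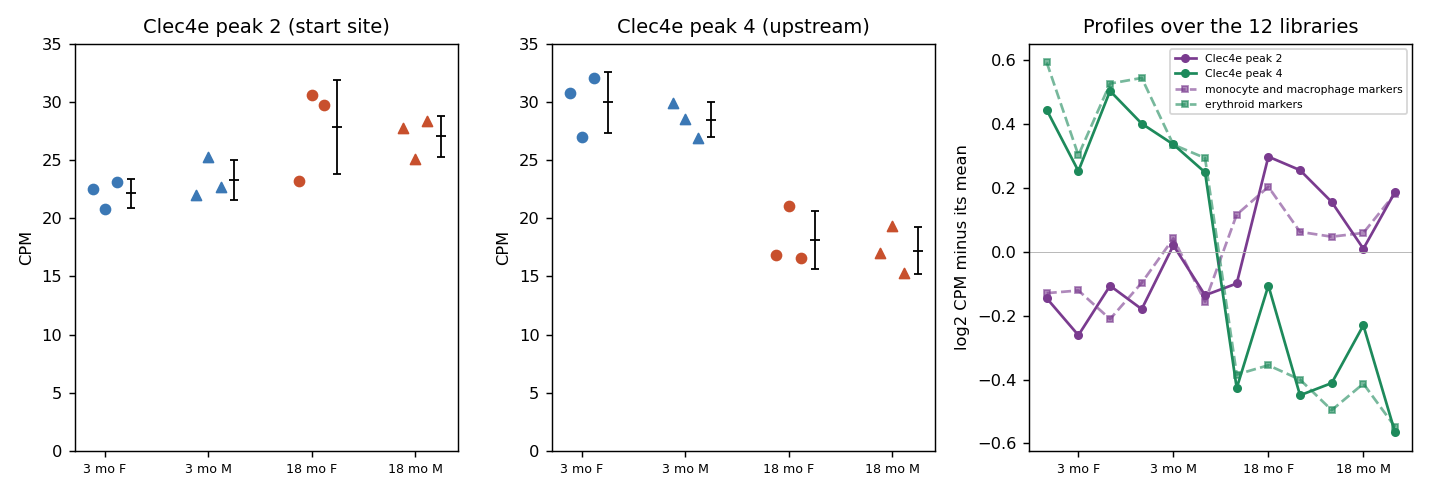
Left and middle, CPM of Clec4e peak 2 (start site) and peak 4 (upstream) by library, with group mean and SD of 3 libraries; right, both peaks and the means of 2 marker lists over the 12 libraries as log2 CPM minus their own mean, in the order of the groups. Peak 4 drops from 26.9 to 32.1 CPM at 3 months to 15.3 to 21.0 CPM at 18 months and runs close to the erythroid markers, while peak 2 runs close to the monocyte and macrophage markers.

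Within each library, the start-site peak of Clec4e was compared with the other 3 peaks of the gene, a ratio that does not depend on scaling. It was taken as the peak with the most CPM over all 12 libraries. At 3 months alone peak 4 had more (29.2 against 22.7 CPM), and the ratio includes the fall of peak 4. The log2 ratio was -0.10 ± 0.22 (SD) in the 6 old and -0.83 ± 0.13 in the 6 young libraries, a difference of 0.73 (two-sided exact permutation test, p = 0.00216, the smallest the design allows, adjusted p = 0.013 over the 6 genes). For the peak with the most CPM in each of the other 5 genes the difference ran from -0.20 to 0.20, with adjusted p of 0.398 to 0.831 in the same exact test. With peaks restricted to 3 kb of a gene, which drops peak 4, the Clec4e difference was 0.21 (exact permutation, adjusted p = 0.524). The gene to pass was then Clec7a, at 0.32 (exact permutation, adjusted p = 0.013).

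The direction of the Clec4e gene sum depended on that upstream peak. With peak 4 alone dropped, a setting chosen after its values were seen, the sum was higher at 18 months by 0.27 (edgeR adjusted p = 0.00493), and all 6 genes passed. With the 25 peaks within 3 kb of a gene it was higher by 0.29 (adjusted p = 0.00356). In the whole set of peaks, 5 of the 15 pairs of genes differed in their age change, and each of the 5 had Clec4e as a partner (differences of 0.34 to 0.48 in size, exact permutation, adjusted p = 0.0162 to 0.039). With peak 4 dropped, and within 3 kb, 0 of the 15 pairs passed in the exact permutation test, and the difference of Clec4e to Clec7a and Clec12a turned from -0.36 and -0.34 to 0.03 and 0.04 within 3 kb. The other 10 pairs differed by at most 0.15 in size. Leaving out a mouse left between 3 and 6 pairs, and 3 pairs without each of the old mice BM-35, BM-36, BM-38, BM-39 and BM-40 and the young mice BM-245, BM-251, BM-244 and BM-252.

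The profile of peak 4 over the 12 libraries was set beside the 7 marker lists, a description added after the values were known. Its root mean square distance from the mean profile of the erythroid markers was 0.11 on the log2 scale, against 0.36 for the next list (dendritic cells) and 0.55 for neutrophils. Peak 2 of the same gene was closest to monocyte and macrophage markers, at 0.11, and farthest from erythroid markers, at 0.59. Among the 37 peaks 15 were closest to the neutrophil list, 7 to the T cell list, 6 to the monocyte and macrophage list, 3 to dendritic cells, 2 to B cells, 2 to NK cells and 2 to erythroid markers. Both of the erythroid ones were upstream of Clec4e. Peak 3 was nearly as close to the dendritic list (0.37) as to the erythroid list (0.34), unlike peak 4, and for the other 35 the erythroid list was the farthest of the 7. Age and run vary together over the 12 libraries and cell makeup was not measured, so nearness of profiles says nothing of which cells carry a peak.

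Clec7a and Clec12a passed as gene sums while 0 of their 4 and 8 peaks passed in edgeR or in DESeq2 (21.0% of all tested peaks in edgeR). At an unadjusted edgeR p under 0.05, 2 of 4 and 3 of 8 peaks did, against 25125 of all 75164 tested peaks. The start-site peak of Clec7a (peak 3) ran from 5.02 to 6.83 CPM in old and from 4.43 to 8.14 CPM in young mice, with a log2 fold change of -0.02. Peak 2, inside the gene and with its most CPM, though not per kb, ran from 12.5 to 14.9 CPM and from 7.57 to 16.3 CPM, where the young male BM-253 was the highest of all 12 and the other young mice reached 12.1 CPM. The change there was 0.30 (SE 0.132, adjusted p = 0.0995).

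The start-site peak of Clec12a (peak 2) ran from 16.5 to 22.8 CPM in old and from 13.6 to 22.6 CPM in young mice. It changed by 0.11 (SE 0.117, adjusted p = 0.551), and the peaks of the gene ran from -0.01 to 0.41. The intragenic peak 3 had the largest value (0.41, SE 0.164, adjusted p = 0.0638).

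In Clec5a all 6 peaks had a log2 fold change above 0 (0.18 to 0.58) and peak 2 passed. It lies downstream of the gene (chr6:40573718-40573991), and held 2.59, 3.08 and 5.02 CPM in old females and 3.66, 5.14 and 5.23 CPM in old males. Young females had 1.56, 1.90 and 2.48 CPM and young males 3.27, 3.79 and 3.86 CPM. The female values were apart and the male values overlapped, with a change of 0.58 (SE 0.217, adjusted p = 0.0478) that was lost in 11 of 17 alternatives: smoothed offsets, no sex covariate and without each of the old mice BM-36, BM-42, BM-39 and BM-40 and the young mice BM-245, BM-243, BM-251, BM-244 and BM-252. The start-site peak 5 ran from 3.44 to 7.36 CPM and from 3.06 to 4.46 CPM, a change of 0.41 (SE 0.194, adjusted p = 0.126).

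By place, 2 of 5 start-site peaks, 3 of 12 other peaks inside a gene, 2 of 8 upstream peaks (1 higher, 1 lower), 1 of 7 downstream peaks and 1 of 5 peaks in the flanks of Clec4n were called. Over all tested peaks, whatever their place, 21.0% were called, and differences between places were not tested. A few of the 37 peaks lay nearer to another gene: Clec7a peak 4 to Olr1, Clec12a peak 8 to Clec12b and Clec5a peak 1 to the olfactory receptor gene Olfr460. None of these 3 was called.

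By sex, the age change passed at 3 of the 37 peaks in females (11.9% of all tested peaks, 5.70% higher and 6.20% lower) and at 3 in males (11.4%, 3.21% higher and 8.18% lower). In females these were the start-site peak of Clec4d (0.53, adjusted p = 0.0149), Clec4n peak 2 (0.54, adjusted p = 0.0332) and Clec4e peak 4, and in males Clec4n peak 1 (0.78, adjusted p = 0.00803), Clec4d peak 1 (0.78, adjusted p = 0.0241) and Clec4e peak 4. The count in females was 1 without the old female BM-35, 1 without the old female BM-36, 6 without the young male BM-253 and 5 without the young male BM-252. It was 6 with total counts, 6 with offsets smoothed on abundance and 6 with female libraries alone. As gene sums, 5 of the 6 genes passed in females (25.7% of all genes, 12.7% higher) and 3 in males (23.2%, 10.6% higher), namely Clec4n, Clec4d and Clec12a. Without the male BM-253 it was 5 in each sex.

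A difference of the age change between the sexes passed at 0 of the 37 peaks (0.00532% of all tested peaks) and 0 of the 6 genes (0.00%) in edgeR, and at 0 peaks and 0 genes in DESeq2. Unadjusted p-values under 0.05 stood at 1 peak and 0 genes. That peak was Clec4n peak 1, named after its values were seen. It held 5.98, 6.64 and 8.88 CPM in old females against 7.23, 8.09 and 10.2 CPM in young females, and 9.49, 9.53 and 12.5 CPM in old males against 5.22, 5.74 and 7.59 CPM in young males. The sex difference in its age change was 1.04 (SE 0.294, adjusted p = 0.237).

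Between the sexes across both ages, 0 of the 37 peaks (0.162% of all tested peaks) and 0 of the 6 gene sums (0.300% of all genes) passed in edgeR, with unadjusted p under 0.05 at 4 peaks and 3 genes. DESeq2 called 0 peaks and 1 gene. All 6 gene sums had values above 0 for males over females, led by Clec5a (0.33, SE 0.086, adjusted p = 0.107) and Clec7a (0.29, SE 0.081, adjusted p = 0.144), and Clec4e, at 0.04, turned to below 0 with the scaling factors of the peak table. At 18 months each sex was sequenced in its own run, so there sex and run cannot be told apart, in this comparison and in the sex difference of the age change. Runs 29 and 31 each held a young female and a young male. In those 4 libraries, with run as a block, 0 of 37 peaks and 0 of 6 genes passed in edgeR, 0 and 0 at an unadjusted p under 0.05. Over all features, 45 of 75107 peaks and 10 of 15307 genes passed there, so calls were rare throughout. There 4 of the 6 gene sums had values above 0 for males, among them Clec5a at 0.17 (SE 0.146) and Clec7a at 0.16 (SE 0.152), while Clec4n stood at -0.08 (SE 0.12) and Clec4e at -0.03 (SE 0.109).

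Marker genes of myeloid cells were mostly higher at 18 months too. The neutrophil list had 12 of 15 measured genes higher and 0 lower with age (median 0.37), led by Ngp (0.74), a granule protein, Ltf (0.60), lactoferrin, S100a8 (0.58) and Mmp8 (0.53), a collagenase. The monocyte and macrophage list had 9 of 14 higher and 0 lower (median 0.35), led by Cd14 (0.63), F13a1 (0.51), Adgre1 (0.49) and Ly86 (0.45). In each library the level of a gene was set against the mean of such a list, and the exact permutation test asked whether that ratio differed between ages, over 18 ratios in all.

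Clec4e differed from the neutrophil list by -0.45 (exact permutation, adjusted p = 0.039) and from the monocyte and macrophage list by -0.38 (exact permutation, adjusted p = 0.0195). Both calls were lost within 3 kb and with Clec4e peak 4 alone dropped (0 genes apart from each list). The ratios of the other 5 genes changed by -0.12 to 0.03 against neutrophil markers and by -0.04 to 0.11 against monocyte markers, and none passed in the exact permutation test (adjusted p of 0.38 or above). Clec5a over neutrophil markers, for one, was -0.93 ± 0.08 (SD) in old and -0.93 ± 0.10 in young mice. Leaving out the old female BM-35, the old male BM-38, the old male BM-39 or the old male BM-40 left 0 genes apart from the neutrophil list, and leaving out the young male BM-253 left 2.

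The lists of other cell types are given by their counts, and differences between lists were not tested. All 15 measured erythroid genes were lower at 18 months (median -0.80), led by the globin gene Hbb-bs (-1.18), the anion exchanger Slc4a1 (-0.99), Hba-a2 (-0.94) and Alas2 (-0.92), the first enzyme of heme synthesis. Dendritic cell markers had 2 of 9 higher and 1 lower (median 0.09), with Batf3 at 0.29, Tcf4 at 0.17 and Cd209a at -0.65. B cell markers had 1 of 11 higher (median 0.01), Ms4a1 at 0.38. T cell markers had 3 of 7 higher and 1 lower (median 0.20), with Cd28 at 0.54, Cd3d at 0.36, Cd5 at 0.30 and Lck at -0.24. NK cell markers had 1 of 6 higher (median 0.26), Prf1 at 0.47.

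Among 26 other C-type lectin genes with a value, 19 were higher and 1 was lower (median 0.31). The highest were Clec4a4 (0.53), Clec10a (0.53) and Clec9a (0.42), the last a receptor of dendritic cells for exposed actin of dead cells. The lower one was Cd209a (-0.65), a mouse relative of human DC-SIGN, with 10.9 ± 1.25 CPM in old against 17.2 ± 2.61 CPM in young mice (SD, n = 6 each). Against the mean of this list only Clec4e of the 6 genes differed, by -0.35 (exact permutation, adjusted p = 0.0195). With Clec4e peak 4 dropped, or within 3 kb, 0 genes differed, and without the young male BM-253 there were 2.

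Downstream of the receptors, 15 of 28 signalling genes were higher with age and 0 were lower (median 0.18). The adaptor gene Tyrobp, coding for DAP12, had the largest change, with 65.0 ± 4.47 CPM in old against 45.0 ± 11.7 CPM in young mice (0.54, adjusted p = 0.00024), its neighbour Hcst, coding for DAP10, rose by 0.51 and Fcer1g by 0.36. Tyrobp and Fcer1g are each carried by 1 peak. The transcription factor gene Nfatc2 rose by 0.48. Outside the rule for naming, the kinase gene Syk rose by 0.31 and Card9 by 0.22, while Malt1 (0.09) and Bcl10 (0.01) did not pass.

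Genes that these receptors are known to induce had 6 of 12 higher and 0 lower (median 0.30). They were led by the neutrophil chemokine gene Cxcl2 (0.67, 32.2 ± 3.55 CPM in old against 20.2 ± 1.91 CPM in young mice), Tnf (0.64), Il12b (0.58) and Nos2 (0.34). In both of these lists the young male BM-253 had the highest level of the 3-month libraries, as it did for neutrophil and monocyte markers.

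**Figure D5:**
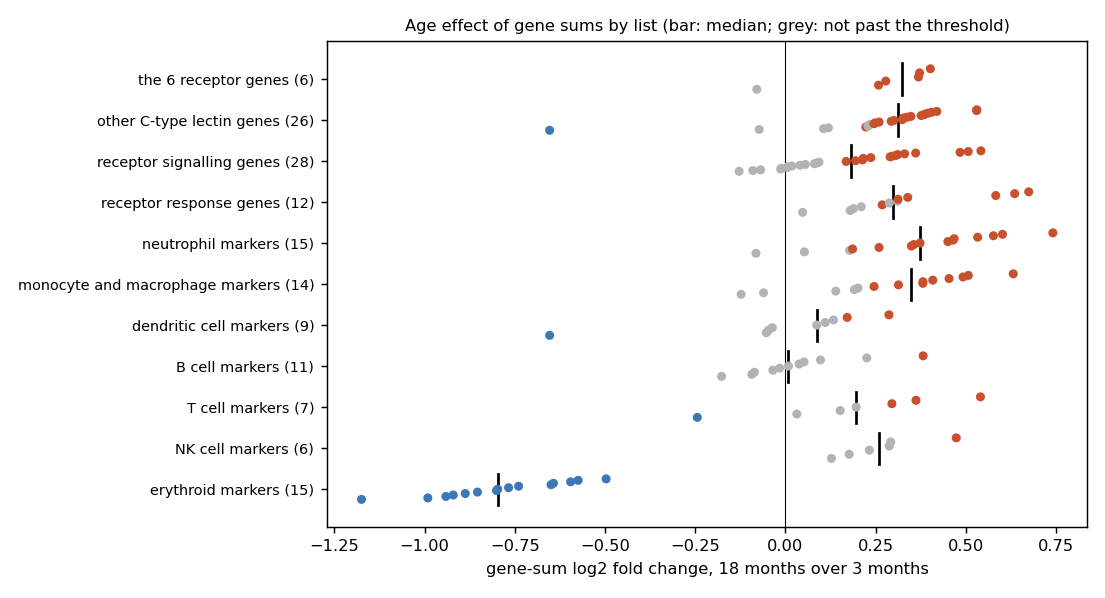
Log2 fold change of gene sums, 18 months over 3 months, for the 6 receptor genes and 10 gene lists, with the number of measured genes in brackets; orange points are called higher, blue points lower, grey points did not pass, and the black bar is the median. Neutrophil, monocyte and other lectin genes have medians of 0.31 to 0.37, near the 0.32 of the 6 receptor genes. The medians of receptor response genes (0.30) and NK cell markers (0.26) are close too, and erythroid genes lie between -1.18 and -0.50.

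The genes whose profile over the 12 libraries was most like each receptor gene, by root mean square distance of centred log2 CPM and at least 1 Mb away, were the following. For Clec4d they were Dach1, Tnr and Pla2g4a (0.06 to 0.07, against a median of 0.27 over 14419 genes), and for Clec4n Sema4f, Ift81 and Ctnnbl1 (0.06 to 0.08, median 0.29). For Clec7a they were Ptgir, Parvg and Mefv (0.07 to 0.08, median 0.29), for Clec12a Dgkg, Cmtm8 and Il10ra (0.05, median 0.23) and for Clec5a Ceacam18, Sirpa and Mtus1 (0.07 to 0.08, median 0.33). The age changes of these 15 genes ran from 0.22 to 0.41, all past the threshold. For Clec4e they were Vps13b, Ifnar1 and Sars (0.04 to 0.06, median 0.19), none of which passed (-0.13 to -0.08). Over these 12 libraries age and run vary together and cell makeup was not measured, and likeness says nothing of shared function.

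For the upstream peak 4 of Clec4e, the most alike genes, looked up after its values were seen, were Tfdp2 (0.08), Slc25a21 (0.08) and Metap2 (0.09), against a median of 0.38. All 3 were lower at 18 months, with log2 fold changes of -0.62, -0.66 and -0.71.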

How the data were processed

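ATAC-seq was read from 12 bone marrow libraries. The authors deposited read counts for 75281 consensus peaks, used as deposited. Per the submitters' processing notes, Trimmomatic, BWA, MACS2, DiffBind, edgeR and mm10 were used; their settings, duplicate removal and the shift of read ends are not given in the sources used here. The smallest deposited count is 1. If duplicates remain, counting error is understated. The floor of 3 counts, 0.239 to 0.376 CPM, covers counting error only; 95% intervals of fold changes come from the fit and hold the spread between mice.

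Groups came from the labels (3 mice each); p-values measure the spread between these mice. A filter (over 1 CPM in 2 or more libraries) left 75164 peaks, tested with TMM factors and edgeR 4.0.16 in R 4.3.3 (age and sex, or 1 mean per group, over all libraries), p-values adjusted over all peaks. Counts summed per gene (the nearest protein-coding gene within 10 kb, but for the 6 genes all of their 37 peaks, 3 of which lie nearer another gene) were tested alike over 15311 genes with factors of their own. Ratios used two-sided exact permutation tests (924 arrangements). Scripts were tested on simulated data. DESeq2 1.42.0, other scalings, filters, windows and leaving out each mouse were alternatives.

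The members and lists were chosen with earlier results of these data known. The text names the 6 genes with their called, strongest and start-site peaks, up to 4 called genes of each list with the largest change, and the 3 most alike genes of each receptor gene; Clec4d peak 8, Clec4e peak 3, Clec12a peak 3 and other names marked in the text were chosen after their values were seen. Of 156 list genes, 155 were in the RefSeq table (Ahsp was not).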

Additional observations from a re-analysis of the deposited data

Results flagged for a closer look

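In 86 checks of the 6 libraries of an age for a single library far from the others, 6 stood out. Chance gives about 1 in 20, so this number is not far above chance. The young male BM-253 was the high one in 5. It held 50.7 CPM in the Clec5a gene sum, where the next young library had 36.7 CPM. At single peaks it held 14.9 CPM in Clec5a peak 3 (next 11.3), 5.43 CPM in Clec5a peak 4 (next 3.46), 11.9 CPM in Clec5a peak 6 (next 7.14) and 10.1 CPM in Clec4n peak 5 (next 5.58). The Clec5a sum contains the counts of its peaks, so these checks are not independent. The old female BM-42 was low in Clec4d peak 3, with 16.9 CPM where the next old library had 23.3 CPM.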

How the results depend on the processing

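The call of the Clec4e upstream peak held in 17 of 17 alternatives, and those of the Clec4d, Clec4n, Clec5a and Clec12a gene sums in 21 of 21 each. The count of called genes was 5 in the main setting and in every fit without 1 mouse, 6 within 3 kb, 6 without Clec4e peak 4, 4 with nearest of all genes and 4 with the peak table's scaling factors; dropping that peak, these factors and the run block were added after seeing the data. Called peaks numbered 9, 14 with total counts and 2 to 12 without 1 mouse. In females they numbered 3, but 6 with total counts, 6 with offsets smoothed on abundance, 6 with females alone and 1 to 6 without 1 mouse; in males 2 to 4. Sex and interaction stayed at 0 to 0.

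Within 3 kb the counts of 5 pairs and of 1 gene apart from neutrophil, from monocyte and macrophage and from other lectin genes became 0, 0, 0 and 0. With Clec4e peak 4 alone dropped they became 0, 0, 0 and 0 too, the 1 gene with a diverging strongest peak became 0, the Clec4e sum reversed to 0.273 and Clec4e minus Clec12a to 0.0225. Within 3 kb the Clec4e sum reversed to 0.29, Clec4e minus Clec7a to 0.0296 and Clec4e minus Clec12a to 0.0397. Without 1 mouse, pairs numbered 3 to 6, genes apart from neutrophil markers 0 to 2, from monocyte markers 1 to 1, from other lectins 1 to 2, and genes with a diverging strongest peak 1 to 1. For the other changes the cause was not tested. No paired analysis was possible because the groups share no mouse numbers. Sex within the shared runs, with run as a block, gave 0 called peaks. Depth limits single peaks, which held 12 to 384 counts per library.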
